A study of Mus musculus with 4 samples.

Results

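Binding of Sp6 (epiprofin), a member of the SP/KLF zinc-finger proteins that normal teeth require, was mapped in mouse molars by chromatin immunoprecipitation with sequencing (ChIP-seq). The results below concern 4 chromatin regulator genes, Smarcc1, Smyd3, Chd2 and Brd2, out of 21631 protein-coding genes. They were chosen by name, with their peak values and interval lengths already known: Smarcc1 and Smyd3 for strong peaks inside the gene, Chd2 and Brd2 for wide intervals. The choice set no number for strong or wide, so peak values and lengths of these genes are given as description only. Together the genes had 16 listed intervals, 4 of 2381 in epithelium and 12 of 7211 in mesenchyme. These totals count the intervals that the authors paired with genes, called annotated intervals here.

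The groups were Sp6 ChIP of dental epithelium, Sp6 ChIP of dental mesenchyme, and input chromatin without antibody from each tissue, with 1 library per group and no replicates. All came from C57BL/6 mice on postnatal day 1. The tissues were separated from 30 molars, so each library pools material of many teeth, and the Sp6 antibody was made in-house. ChIP-seq gives no expression values, so the tissue labels were not checked against marker genes. Read totals are not known, and no scaling between libraries is stated. A peak value is the density of fragments that the authors give for the highest bin (about 32 bp) of an interval, and it was ranked within its own library. The median peak value was 27 in epithelium and 34 in mesenchyme, and the median annotated interval was 543 bp and 632 bp long.

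Chromatin regulators alter how DNA is packed or read the marks on histones. Smarcc1 encodes BAF155, a scaffold subunit of the BAF (SWI/SNF) complex, which moves nucleosomes with energy from ATP. Smyd3 encodes a lysine methyltransferase with a SET domain and a MYND zinc finger. Chd2 encodes an ATP-dependent remodeller with chromodomains, and Brd2 a BET protein whose bromodomains bind acetylated histones.

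The wide Chd2 and Brd2 intervals lay over gene starts and held a CpG island, a CpG-rich stretch found at many promoters. The bases just before the start are shown for Brd2 and, as a start far from any listed interval, for Smarcc1. Both come from RefSeq on GRCm38.p6, 5′ to 3′ on the strand of the gene, with CpG dinucleotides in capitals. Brd2 lies at chr17:34122608-34122857 on the minus strand and is its outermost of 3 RefSeq starts, and Smarcc1 at chr9:110131774-110132023 on the plus strand.
Brd2: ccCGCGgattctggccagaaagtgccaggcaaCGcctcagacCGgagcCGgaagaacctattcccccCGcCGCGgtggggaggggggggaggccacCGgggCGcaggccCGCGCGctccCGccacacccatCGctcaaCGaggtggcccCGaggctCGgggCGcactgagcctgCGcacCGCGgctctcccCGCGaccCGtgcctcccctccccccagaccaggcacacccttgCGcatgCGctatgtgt
Smarcc1: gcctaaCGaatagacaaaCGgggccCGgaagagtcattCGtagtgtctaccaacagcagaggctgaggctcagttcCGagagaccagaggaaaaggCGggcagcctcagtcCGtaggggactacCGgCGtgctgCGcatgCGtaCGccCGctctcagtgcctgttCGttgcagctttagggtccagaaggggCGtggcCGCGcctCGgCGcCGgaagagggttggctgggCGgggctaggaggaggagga

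The Brd2 window of 250 bases held 27 CpG dinucleotides and had a GC content of 73.6%, higher than 94.7% of 32851 RefSeq windows of that length. The other Brd2 windows were less rich, with 18 CpG dinucleotides and 56.4% GC at chr17:34119901-34120150 and 12 and 65.2% at chr17:34121748-34121997. The Smarcc1 window held 21 CpG dinucleotides and had a GC content of 63.6%, higher than 80.0% of the windows. The letters GGGCGG, the core of the GC box that SP proteins are known to bind, were searched on both strands. They occurred once in the Smarcc1 window, once in the last of these Brd2 windows and not in the Brd2 window shown, while 32.7% of all windows held them. The letters GGGTGG, also searched on both strands, occurred once in each of the other Brd2 windows and in neither window shown, against 28.1% of all windows. These are matches of letters only. The deposited intervals are on another build, mm9, and which Brd2 window they cover was not determined. Smyd3 and Chd2 were not matched in the table of sequences.

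In Smarcc1 a single strong interval lay deep inside the gene in both tissues. Its peak value was 132 in epithelium (chr9:110111228-110111968, mm9) and 374 in mesenchyme (chr9:110111238-110111936). These ranked 10 of 2381 in epithelium and 4 of 7211 in mesenchyme. Both peak centres fell on the same position, 77056 bp from the gene start, and neither interval held a CpG island. No other interval was listed for the gene. The nearest other interval of any kind lay 157 kb away in both libraries on one side, and on the other 1034 kb away in epithelium and 259.6 kb away in mesenchyme.

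Smyd3 had 1 strong interval and several weaker ones spread along a long gene body. The strong interval had a peak value of 166 in epithelium (chr1:181375784-181376472), rank 5, and 333 in mesenchyme (chr1:181375706-181376362), rank 10. It lay about 72.0 kb inside the gene, and the peak centres of the tissues were 32 bp apart. The other epithelium interval had a peak value of 25 and lay 509 kb from the start (chr1:180939250-180939854). It overlapped a mesenchyme interval of peak value 50 (chr1:180939261-180939873), again with centres 32 bp apart.

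The 6 remaining Smyd3 intervals were found in mesenchyme alone. Going into the gene, their peak values were 36 at 92.9 kb, 48 at 114 kb, 15 at 115 kb, 58 at 269 kb, 46 at 396 kb and 40 at 474 kb. The 7 mesenchyme intervals other than the strong one thus had peak values of 15 to 58, with a median of 46. The highest of them was 58, and the strong interval was 5.74 times as high. In epithelium the strong interval was 6.64 times the other. From the first to the last, the 8 mesenchyme intervals spanned 437 kb. No Smyd3 interval in either tissue held a CpG island or lay within 5 kb of the start.

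**Figure D1:**
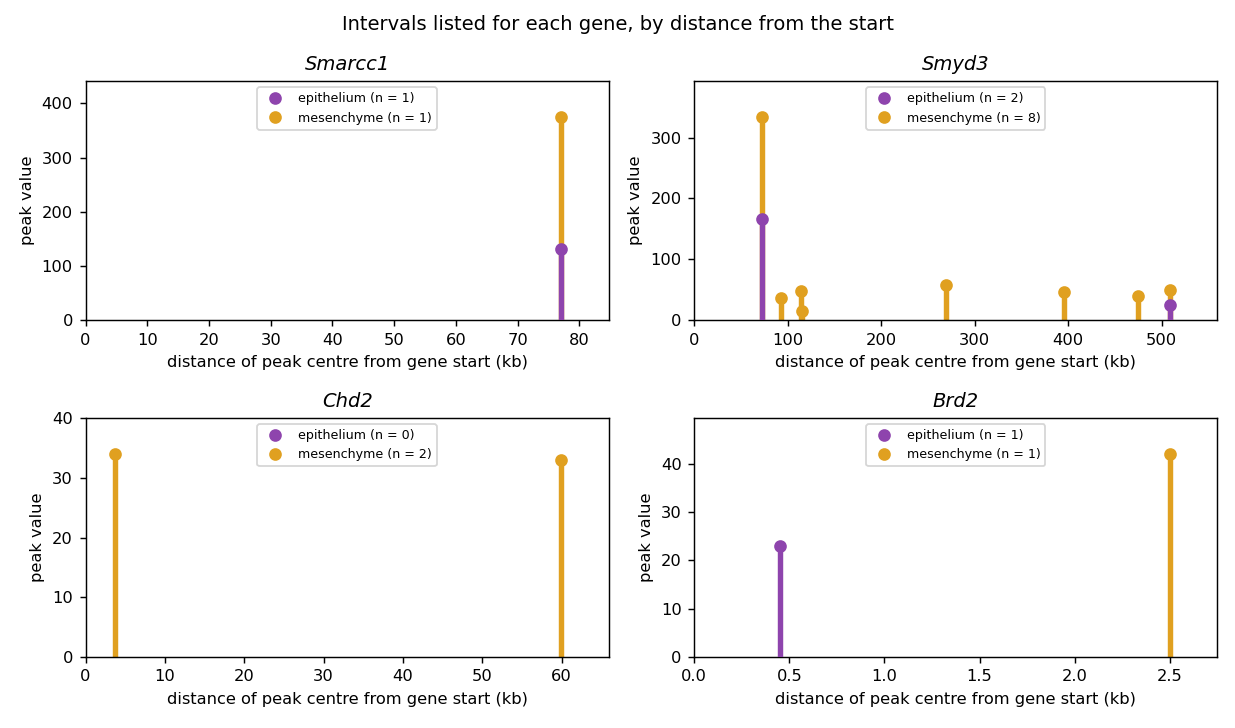
Peak value of each listed interval (vertical axis) against the distance of its peak centre from the gene start in kb (horizontal axis), for each of the 4 genes, with epithelium and mesenchyme intervals in separate colours. In Smarcc1 and Smyd3 the tissues have their highest peak at the same distance, in Brd2 at 0.452 kb in epithelium and 2.5 kb in mesenchyme, and Chd2 has mesenchyme intervals alone.

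Chd2 had no listed interval in epithelium and 2 in mesenchyme. The wide one (chr7:80682432-80686799) was 4368 bp long, the 8th longest of 7211, with a peak value of 34, which equals the library median. It reached from 83 bp upstream of the listed start to 4285 bp inside the gene and held 1 CpG island. The other (chr7:80626595-80627102) lay 59.9 kb from the start, was 508 bp long and had a peak value of 33. The heights were thus nearly equal while the lengths differed. The nearest epithelium interval of any kind lay 287 kb from the wide interval and 231 kb from the other.

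Brd2 had 1 interval in each tissue, both near the start and both with 1 CpG island. In epithelium it was short, 464 bp with a peak value of 23 (chr17:34258102-34258565), running from 127 to 591 bp inside the gene. In mesenchyme it was 4132 bp long, the 10th longest, with a peak value of 42 (chr17:34255510-34259641), and it ran from 949 bp upstream of the start to 3183 bp inside. The epithelium interval lay wholly within the mesenchyme one. Both are also listed for LOC100043003 and LOC100043522, so they cannot be assigned to Brd2 alone. Each interval of Smarcc1, Smyd3 and Chd2 was listed for that gene alone.

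**Figure D2:**
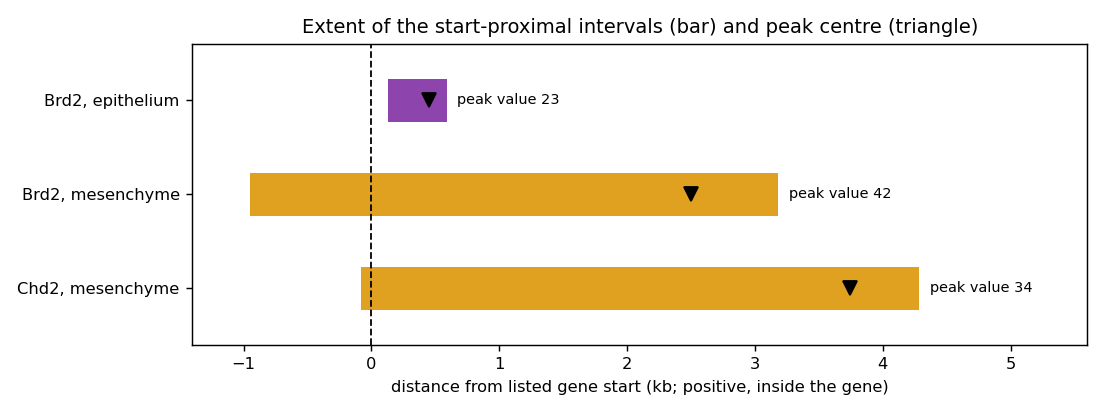
Extent of the intervals nearest the listed starts of Brd2 and Chd2, in kb from the start (horizontal axis, positive inside the gene), with 1 bar per interval and a triangle at the peak centre. Both mesenchyme bars cross the start and have their peak centre at the end that lies inside the gene, 2.5 kb from the start in Brd2 and 3.74 kb in Chd2, while the epithelium bar of Brd2 is 464 bp long.

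Measures built from the height and length that chose the genes describe the shape of the intervals further. By length, Smarcc1 (741 bp in epithelium, 699 bp in mesenchyme) was above 94.0% of epithelium and 68.8% of mesenchyme intervals. The strong Smyd3 interval (689 bp and 657 bp) was above 90.0% and 57.3%. In mesenchyme the peak value was 3.81 times the average value over the bins in Smarcc1 and 3.44 times in the strong Smyd3 interval, against 2.47 times in the median annotated interval. It was 2.5 times in the wide Chd2 interval and 3.26 times in Brd2. Both were lower than in the strong pair, though Brd2 was close to Smyd3. The average value, a density per bin and so comparable between lengths, was 98.0 in Smarcc1 and 96.8 in Smyd3, but 13.6 in Chd2 and 12.9 in Brd2. The last 2 lie below the library median of 14.0.

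Summed over all bins of the interval, and so not per length, the mesenchyme values came close together. They were 2157 in Smarcc1, 1936 in Smyd3, 1865 in Chd2 and 1660.0 in Brd2, all above the values of 99% of annotated intervals (99.7, 99.6, 99.6 and 99.5%). The sum is made of height and length, so the choice of genes placed it near the top. The median annotated mesenchyme interval had 281. In epithelium the sums were 883 in Smarcc1 and 988 in Smyd3 but 187 in Brd2, against a median of 212.

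**Figure D3:**
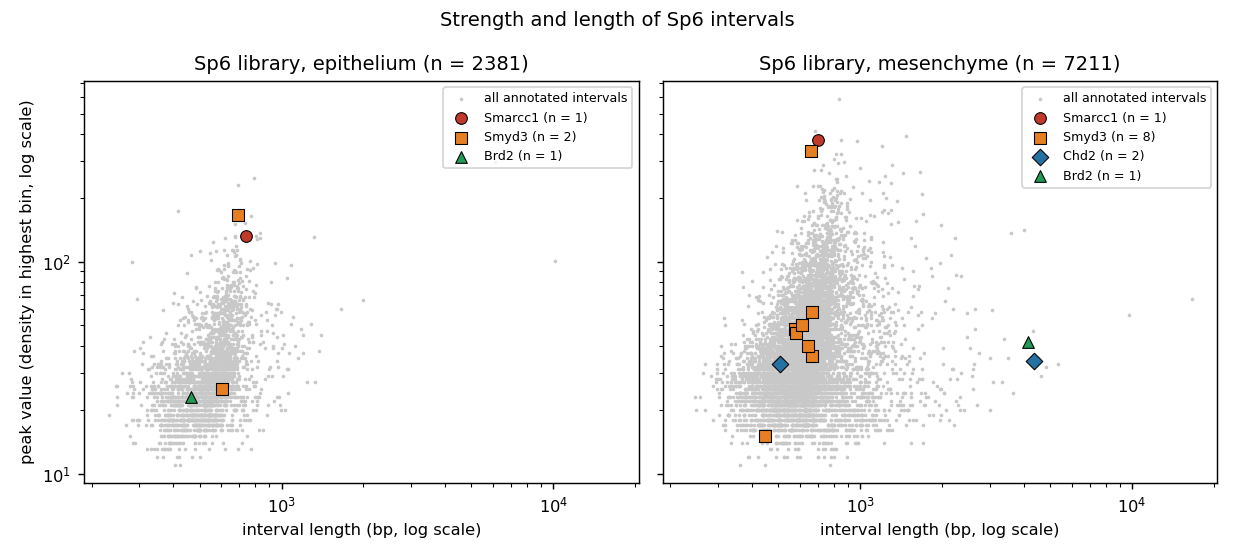
Peak value (vertical, log scale) against interval length in bp (horizontal, log scale) for all annotated intervals (grey) and those of the 4 genes (coloured), with epithelium on the left and mesenchyme on the right. Smarcc1 and the strong Smyd3 interval sit near the top of both clouds, and the wide Chd2 and Brd2 intervals sit far to the right in mesenchyme at peak values of 34 and 42.

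The place of the highest bin, which the choice of genes did not use, also differed. In Smarcc1 the peak centre lay near the middle, at 48.2% of the length from the nearer edge in epithelium and 49.6% in mesenchyme. In the strong Smyd3 interval it lay at 49.9% and 40.5%. In the wide intervals it lay near the edge inside the gene, at 12.5% in Chd2 and 16.5% in Brd2. The median was 43.5% over all mesenchyme intervals (interquartile range 37.9 to 47.1%) and 27.7% in the widest 1% (72 intervals, interquartile range 17.7 to 39.3%). An off-centre peak was therefore common among wide intervals in general, though Chd2 and Brd2 both lay below the lower quartile of the widest 1%. The short Brd2 interval of epithelium was at 30.0%.

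None of the 3 epithelium and 9 mesenchyme intervals of Smarcc1 and Smyd3 held a CpG island, while the Brd2 interval of each tissue and the wide Chd2 interval did. The other Chd2 interval did not. Over all annotated intervals 4.20% in epithelium and 8.45% in mesenchyme held a CpG island, so its absence was the usual case. Among the widest 1% of mesenchyme intervals 43 of 72 (59.7%) did, and 51 lay within 5 kb of a gene start. Among the highest 1% by peak value 1 of 72 did, and all 72 overlapped an epithelium interval.

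All 4 epithelium intervals of these genes overlapped a mesenchyme interval, where the share over annotated epithelium intervals was 87.4%. Of the 12 mesenchyme intervals 4 overlapped an epithelium interval, against 28.7% of annotated mesenchyme intervals. Both shares are near those of the whole lists. The log2 ratio of epithelium to mesenchyme peak values was -1.50 in Smarcc1, -1.0 in both shared Smyd3 intervals and -0.87 in Brd2. The median over 2083 overlapping pairs was -0.97, with an interquartile range of -1.35 to -0.585. The ratio of Smarcc1 was lower than the lower quartile and the others lay inside the range. With no stated scaling, these ratios describe the deposited values and not a difference in binding.

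The peak centres of the shared Brd2 interval stood apart from those of other pairs. They were 2048 bp apart, where the median pair was 32 bp apart and 1 of the 2083 pairs had a larger distance. Brd2 was chosen for its wide mesenchyme interval of 4132 bp, which leaves room for such a distance. Pairs that hold a wide interval were not compared separately. No interval of the 4 genes touched an input interval, against 0.420% of annotated intervals in epithelium and 0.139% in mesenchyme. There were only 17 input intervals in epithelium and 24 in mesenchyme, so this is no measure of background. All 16 intervals were listed as inside the gene, the position of 77.1% of annotated intervals in epithelium and 76.0% in mesenchyme. Smarcc1 and Smyd3, which hold 3 of them in epithelium and 9 in mesenchyme, were chosen for strong peaks inside the gene. The count is therefore description only.

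Genes most like each of the 4 were found by the percentile of peak value and of length of their highest interval, over both libraries (1 for Chd2). For Smarcc1 these were Zdhhc21 (peak values 93 in epithelium and 143 in mesenchyme), Pag1 (99 and 128) and Gas2l3 (231 and 415), at 3.90, 3.97 and 5.71 percentile points among 1783 genes. For Smyd3 they were Gas2l3 and Nr1h4, which share 1 interval, at 7.1, and Gsg1l (67 and 138) at 8.31. For Chd2, in mesenchyme alone among 4623 genes, they were Gtf3c6 (peak value 34, length 1513 bp) at 1.51 and Amelx (35, 3504 bp) and Gm3336 (35, 3002 bp) at 2.10. For Brd2 the nearest were farther off, with Mtres1 at 9.35, Cd44 at 16.0 and Iqca at 18.4. Mtres1 had a mesenchyme interval of 1253 bp, Cd44 of 797 bp and Iqca of 835 bp, all shorter than that of Brd2.

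The families of the 4 genes were then counted. Of 21631 protein-coding genes, 8.92% had a listed interval in epithelium and 21.4% in mesenchyme. The 4 genes had one in 3 of 4 cases in epithelium and 4 of 4 in mesenchyme, which their choice fixes. Within 5 kb of the start, 1 of the 4 genes had one in epithelium (Brd2) and 2 in mesenchyme (Chd2 and Brd2), against 2.02% and 6.76% of protein-coding genes. The choice bears on these counts too. Chd2 and Brd2 were chosen for wide intervals, and 51 of the 72 widest mesenchyme intervals lay within 5 kb of a start. The counts below are not matched for gene length.

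Among 27 subunits of the BAF and related PBAF complexes, 7 had an interval in epithelium (25.9%) and 7 in mesenchyme (25.9%), of which 6 had one in both. Without Smarcc1 the counts were 6 of 26 in each tissue. The mesenchyme share is close to that of all genes. Smarca2, an ATPase of the complex, had peak values of 57 in epithelium and 164 in mesenchyme, 125 kb inside the gene. The DNA-binding subunit genes Arid1a and Arid1b also had intervals in both tissues, with highest values of 40 and 65 in Arid1a and 35 and 64 in Arid1b, as did Dpf2 and Dpf3, genes of PHD finger subunits. Dpf2 had peak values of 31 and 88 at 2.55 and 2.53 kb from its start. Bcl11a had an interval in epithelium alone (peak value 15) and Bcl11b in mesenchyme alone (23). The median of the highest peak values was 35 in epithelium and 65 in mesenchyme, against 28 and 38 over all genes with an interval. The family medians include Smarcc1, which was chosen for its strong peak, and the number of intervals per gene was not matched.

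The CHD remodellers had intervals in 4 of 9 genes in epithelium (44.4%) and 7 of 9 in mesenchyme (77.8%), or 4 of 8 and 6 of 8 without Chd2. Chd1, Chd6, Chd7 and Chd9 had intervals in both tissues, and Chd2, Chd3 and Chd4 in mesenchyme alone. The Chd4 interval lay downstream of the gene, 35.2 kb from its start, with a peak value of 17. Chd7, mutated in human CHARGE syndrome, had peak values of 38 in epithelium and 102 in mesenchyme, 75.6 kb inside the gene. Chd6 had 33 and 112, at 153 kb. None of the 4 epithelium genes had an interval within 5 kb of the start, while in mesenchyme Chd2 and Chd3 did. Chd3 had a peak value of 25 and a widest interval of 890 bp, so among the CHD genes the 4368 bp of Chd2 was the longest interval, ahead of 924 bp in Chd6. The median of the highest peak values was 30.5 in epithelium and 59 in mesenchyme. Of the 7 mesenchyme genes, 4 had an interval among the top 50% by peak value, and 4 at equal interval numbers in both tissues. The shares of all protein-coding genes under these limits are not given here.

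In the small families the gene described here was the member with an interval, and the choice of genes fixed that it had one. Smyd3 was the 1 of 5 SMYD genes, and Brd2 the 1 of 3 BET genes counted, with an interval in either tissue. The other SMYD genes (Smyd1, Smyd2, Smyd4 and Smyd5) and the other BET genes counted (Brd3 and Brdt) had none listed. Without Smyd3 and Brd2 the counts were thus 0 of 4 and 0 of 2 in each tissue. So few genes cannot be set against the 8.92% of protein-coding genes with an interval in epithelium and 21.4% in mesenchyme. A gene not listed may still have a weaker or more distant interval, since the tables begin 10 kb upstream of a gene start.

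**Figure D4:**
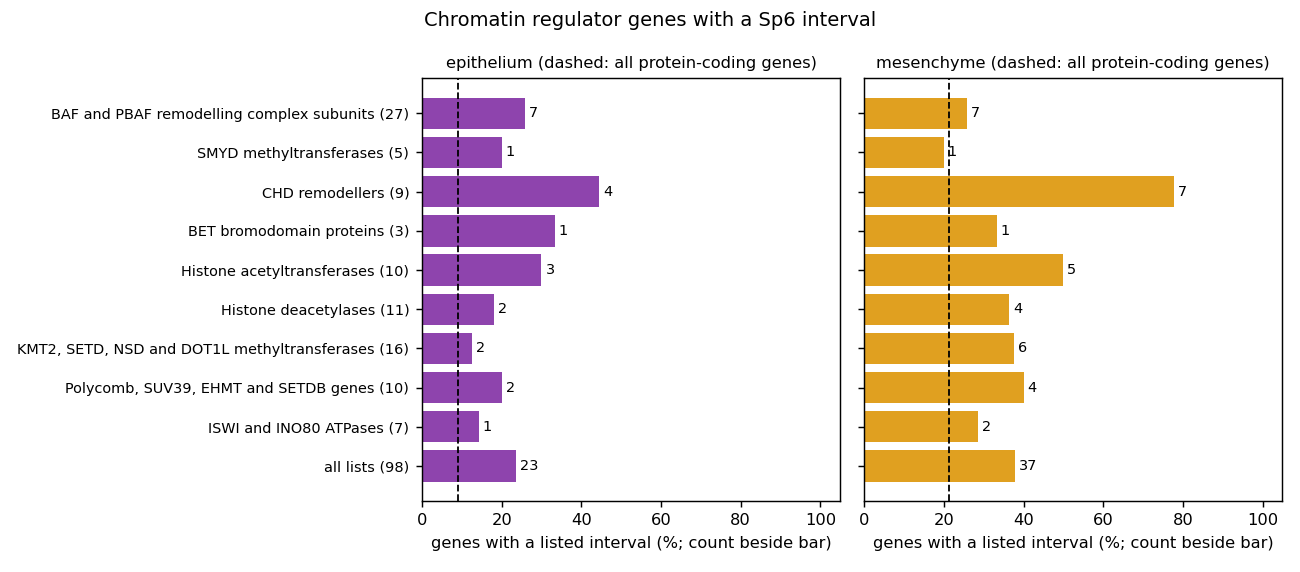
Share of the genes of each chromatin regulator list with a listed Sp6 interval (horizontal axis, percent, with the count beside each bar and the list size in brackets), with epithelium on the left and mesenchyme on the right, and a dashed line at the share of all protein-coding genes (8.92% in epithelium, 21.4% in mesenchyme). The CHD remodellers have the longest bars, 44.4% and 77.8%, and the counts are not matched for gene length.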

How the data were processed

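Per the submitters' processing notes, intervals were called with MACS 1.3.7.1 on mouse build mm9. The aligner, thresholds and role of the inputs were not given in the sources used here. The authors deposited an interval list for each of the 4 libraries and, for both Sp6 libraries, a table of intervals and genes. Per the file headers these tables hold signal values (peak and average fragment density per bin), positions, lengths, counts of bins, peaks, CpG islands and genes per interval, and a signed distance score from peak centre to gene start. Read totals are unknown, so values were ranked within a library. The tables are limited to intervals with a listed gene.

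Members were matched by the gene name. An overlap of 1 bp or more made an interval shared. Percentiles give the share of annotated intervals with a lower value. Deposited starts were taken to count from 0 and are printed counted from 1. For family counts, names were matched to symbols and synonyms of RefSeq protein-coding genes outside the Y and mitochondrial chromosomes (GRCm38.p6): 1930 of 2239 names in epithelium, 4627 of 5391 in mesenchyme, and all 98 list genes. The lists do not hold every family member, and some genes are not reported here. Values are named for the 4 members, for the list genes with an interval and for the 3 nearest in likeness. The members and lists were chosen with earlier results of these data known. With 1 library per group no test was run. Overlap and percentile functions were tested on simulated data. Analyses used Python 3.11.15, pandas 2.3.3, numpy 2.4.6, scipy 1.17.1 and matplotlib 3.10.9.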

Additional observations from a re-analysis of the deposited data

How the results depend on the processing

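With intervals at most 5 kb from the start, 1 of the 4 genes had an interval in epithelium and 2 in mesenchyme, and at equal interval numbers 2 had one in mesenchyme (Smarcc1 and Smyd3). Ranked by average value, the highest Smarcc1 interval of epithelium was above 98.9% of intervals in place of 99.5%. Brd2 was at 46.3% in place of 30.2% in epithelium and at 39.9% in place of 64.2% in mesenchyme, and Chd2 at 46.5% in place of 48.6%. Among intervals inside genes, Chd2 was at 46.3% and Brd2 at 62.5% by mesenchyme peak value. By length, the percentile among CpG island intervals was 99.0% for Chd2 and 98.7% for Brd2 in mesenchyme, in place of 99.9%, and 22.0% for Brd2 in epithelium, in place of 24.7%. Among all intervals of the mesenchyme library it was 70.6% for Smarcc1 and 61.1% for the widest Smyd3 interval, in place of 68.8% and 59.2%. Of the 98 list genes, 23 in epithelium (23.5%) and 37 in mesenchyme (37.8%) had an interval (20 and 33 of 94 without the 4 members). The shares of all protein-coding genes were 8.92% and 21.4%. At most 5 kb from the start 3 and 13 did, against 2.02% and 6.76% of all protein-coding genes. In the top 50% by peak value 11 and 24 did, and at equal interval numbers 17 in mesenchyme. For these last 2 limits the share of all genes is not given here, so these counts and those of single families have no background beside them. The other 30 of 49 values stayed within 1.5 times (counts) or within their Wilson 95% interval, which covers counting error only. For the single families, 31 of 45 counts moved by more than 1.5 times. The CHD count in mesenchyme was 4 in the top 50%, 4 at equal interval numbers and 2 within 5 kb, in place of 7. Limits by strength or distance leave fewer intervals. The cause of the other shifts was not tested. No paired analysis was possible because each group has 1 library, and leaving out a replicate could not be done for the same reason. Read totals are unknown, so no limit from depth can be given.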

Other observations

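Other families of chromatin regulators also had Sp6 intervals, set here beside the 8.92% of protein-coding genes with one in epithelium and the 21.4% in mesenchyme. Gene length was not matched, and the share of all genes at equal interval numbers is not given here. Of 10 histone acetyltransferase genes, 3 had one in epithelium (30.0%) and 5 in mesenchyme (50%), or 2 in mesenchyme at equal interval numbers. Kat7 had the highest values, 29 in epithelium and 95 in mesenchyme, 16.3 kb inside the gene. Kat6b had 21 and 38, at 150.5 kb, and Kat5 had 20 and 30, downstream of the gene. Hat1 (47) and Kat6a (35) had intervals in mesenchyme alone. Of 11 histone deacetylase genes, 2 had an interval in epithelium (18.2%) and 4 in mesenchyme (36.4%), or 2 in mesenchyme at equal interval numbers. Hdac5 had 23 and 54, Hdac4 had 67 in mesenchyme, 109 kb inside the gene, and Hdac11 had 16 in epithelium alone. Hdac9 (36) and Hdac3 (23, downstream of the gene) had intervals in mesenchyme alone.

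Of 16 genes for KMT2, SETD, NSD and DOT1L methyltransferases, 2 had an interval in epithelium (12.5%, near the share of all genes) and 6 in mesenchyme (37.5%). At equal interval numbers 1 of the 6 did. Kmt2a had peak values of 21 and 42 about 5.7 kb from its start, and Nsd1 had 20 and 16 at different places. Kmt2c had 64 in mesenchyme alone, and Kmt2b (17), Setd5 (29) and Setd7 (38) were also found in mesenchyme alone. In 4 of these genes, Kmt2b, Nsd1, Setd5 and Setd7, a mesenchyme interval within 5 kb of the start held a CpG island, as at Chd2 and Brd2. Their intervals were far shorter than the wide pair, the longest being 1257 bp in Nsd1. The share with a CpG island among all intervals near starts is not given here. Over all 98 genes, 13 (13.3%) had a mesenchyme interval within 5 kb of the start, against 6.76% of protein-coding genes, and 3 (3.06%) had one in epithelium, against 2.02%. These counts include Chd2 and Brd2 in mesenchyme and Brd2 in epithelium, genes chosen with their intervals known. Of 10 Polycomb, SUV39, EHMT and SETDB genes, 2 had an interval in epithelium (20%) and 4 in mesenchyme (40%). At equal interval numbers the mesenchyme count was 1. Ehmt2 had 26 and 34, Setdb1 had 23 in each tissue, downstream of the gene, and Setdb2 (46) and Suz12 (16) had one in mesenchyme alone. Of 7 genes for ISWI, INO80 and related ATPases, 1 had an interval in epithelium (14.3%) and 2 in mesenchyme (28.6%). At equal interval numbers the mesenchyme count was also 1. Ep400 had 46 in epithelium and 121 in mesenchyme, and Hells had 23 in mesenchyme alone.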
